A study of Arabidopsis thaliana with 19 samples.

Results

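Sulfate assimilation turns inorganic sulfate into sulfide for cysteine, and a side branch of it supplies the activated sulfate that is used to sulfate glucosinolates. Described here are 6 transcripts of these routes in Arabidopsis thaliana seedlings, 6 of the 22810 probe sets of the array, chosen by name for their place in the pathway, with earlier results of these data known. Of these, 3 are named by the array annotation: APS3 (AT4G14680), SIR (AT5G04590) and TAAC (AT5G01500). The other 3 are probe sets that the rule which chose the members assigns to APR1 (AT4G04610), APR2 (AT1G62180) and APR3 (AT4G21990). The annotation table used here does not list these last 3, so the names APR1, APR2 and APR3 stand for that assignment alone, and the plots give their identifiers. All 6 passed the filter on dim probe sets and were among the 15627 that were tested.

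ATP sulfurylase, of which APS3 encodes a form, joins sulfate to ATP and makes adenosine phosphosulfate. APS reductases, encoded by the APR genes, reduce that product to sulfite, and sulfite reductase, encoded by SIR, reduces sulfite to sulfide, all within the plastid. In the side branch APS kinase makes PAPS, the sulfate donor of the sulfotransferases that complete the glucosinolate core in the cytosol, and TAAC, named as a thylakoid ATP/ADP carrier, is also known as the transporter PAPST1 that carries PAPS across the plastid envelope.

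Transcripts were measured on 19 Affymetrix ATH1 arrays, 1 for each sample of 14-day-old seedlings without cotyledons and hypocotyls, grown in days of 10 h light and 14 h dark at 20 °C. MYB29_OE and MYB76_OE (2 arrays each) overexpressed MYB29 or MYB76, regulators of the aliphatic glucosinolates, for which methionine is the precursor, and stood against 3 wild type arrays (WT_MYB29_MYB76). ATR1_OE and MYB51_OE (2 each) overexpressed ATR1 or MYB51, regulators of the indole glucosinolates, for which tryptophan is the precursor, and stood against 2 wild type arrays (WT_ATR1_MYB51). ATR1_like_miR and MYB28_like_miR (2 each) carried an artificial microRNA, a small RNA built to lower selected transcripts, under the viral 35S promoter, which is active in most cells, and stood against 2 wild type arrays (WT_miR). The annotation names no probe set of the regulators themselves, so their overexpression or reduction was not checked here. The labels give neither the promoter of the overexpressing lines, nor the accession of the plants, nor how many independent lines were used. Whether replicates came from separate cultures is not stated, so the p-values rest on a spread that could be partly technical. For MYB28_like_miR replicate 2 a second label names the construct 35S:ATR1. The title was followed, and the members' differences in that line are given with and without this array. The comparisons ask which transcripts differ when a regulator is overexpressed or when an artificial microRNA against a regulator group is made.

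Signal is the deposited linear MAS5 intensity, scaled by the authors to a common level on each array, and differences are on the log2 scale. The arrays had median signals of 78.4 to 106 and a floor, below which values were not told apart, of 12.4 to 19.1, so all 6 members lay well above it on all 19 arrays. Of 15 leaf markers RCA, the activase of Rubisco, is named on the array, with a signal from 7056 to 13670. Of 6 root markers EXPA7 and EXPA18 are named, and their summed signal lay between 38.87 and 104.9, with EXPA7 at the floor on 5 arrays. The tissue is a mixture, and fewer cells of a type cannot be told apart from less RNA per cell.

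**Figure D1:**
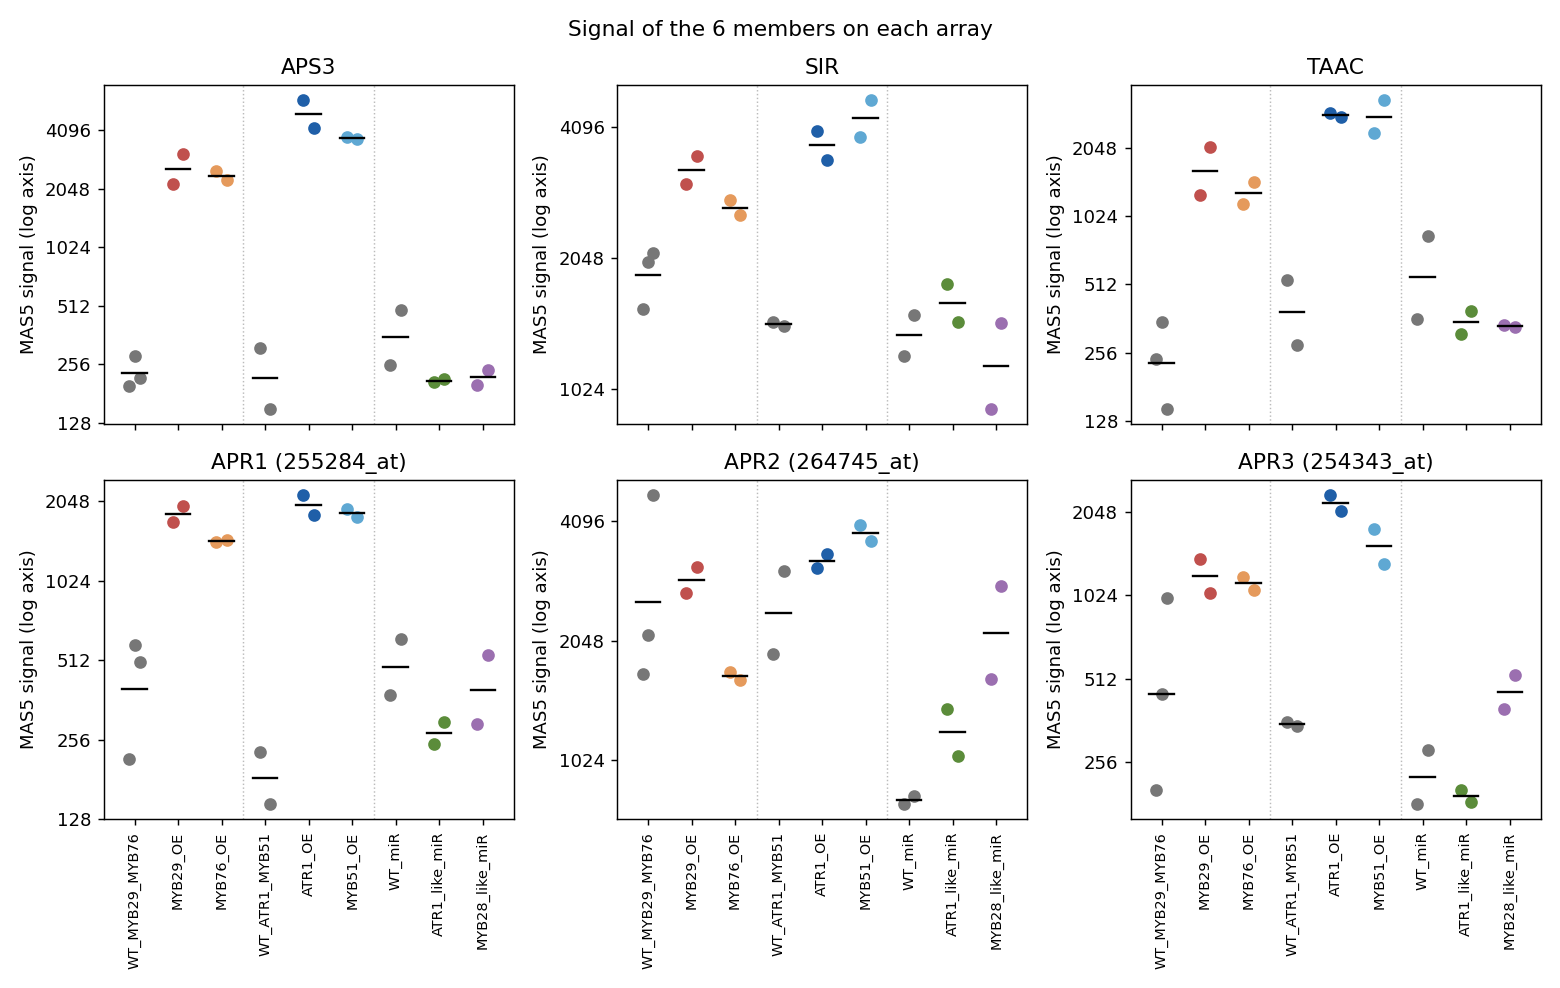
Signal of the 6 members (log scale) on each of the 19 arrays, by group, with points for arrays and a line at the mean of the log2 signals of a group. For APS3, SIR, TAAC, APR1 and APR3 every array of the 4 overexpressing lines lies above all other arrays, whereas the groups of APR2 are interleaved.

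Plastid-encoded transcripts set some arrays apart before any member is considered. Their summed signal over 69 probe sets was 65520 to 207300 in WT_MYB29_MYB76 but 3440 to 4315 on the MYB29_OE and MYB76_OE arrays, and 116600 to 155400 in the artificial microRNA lines but 2558 and 4221 in WT_miR. In the ATR1 and MYB51 experiment all 3 groups lay between 4528 and 8922. Of 68 tested plastid-encoded probe sets, 58 were called lower in MYB29_OE, 54 lower in MYB76_OE, 54 higher in ATR1_like_miR and 51 higher in MYB28_like_miR (44 without its replicate 2), and none was called in ATR1_OE or MYB51_OE. The members are encoded in the nucleus, and the part of this signal in their differences was not tested. Differences from the other experiments' wild type are given beside the MYB29_OE and MYB76_OE results, and for APR1 beside those of ATR1_OE and MYB51_OE. This control was chosen after seeing the data and changes the experiment too.

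**Figure D2:**
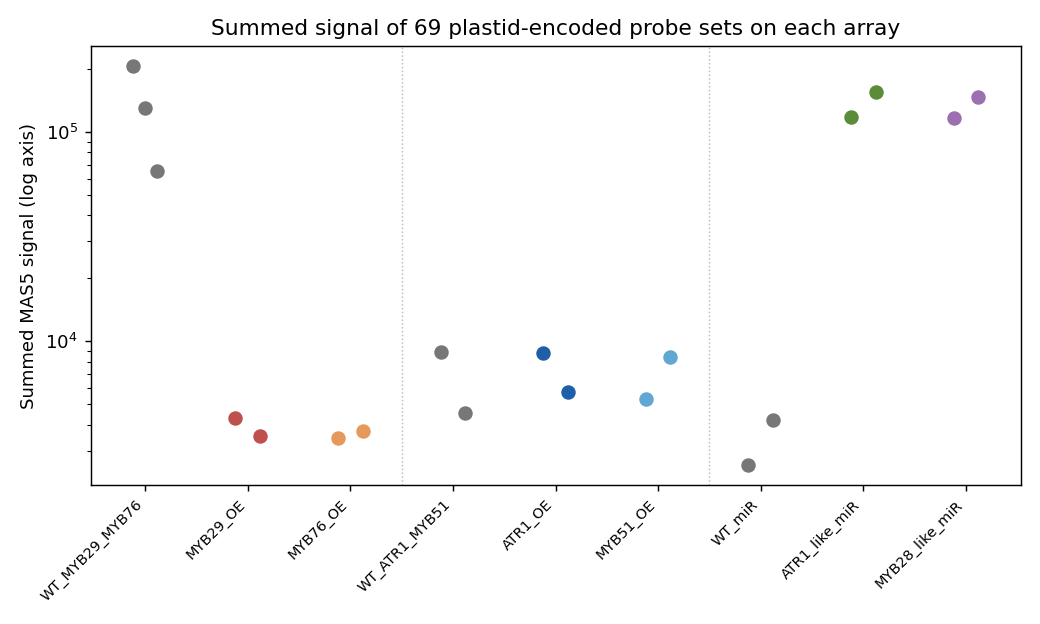
Summed signal of 69 plastid-encoded probe sets (log scale) on each array, by group. WT_MYB29_MYB76, ATR1_like_miR and MYB28_like_miR lie at 65520 or above, and the arrays of the other 6 groups at 8922 or below.

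APS3, TAAC and APR1 transcripts were called higher in all 4 overexpressing lines and SIR and APR3 in 3 of them, while APR2 was called in none. In MYB29_OE 5 of the 6 members rose, where 8.09% of all tested probe sets did. In MYB76_OE 3 rose, against 7.15% of all. Of the other members there, SIR (0.51) and APR3 (1.32) had positive differences and APR2 (-0.63) a negative one, none of them called. In ATR1_OE 5 rose, against 5.54%, and in MYB51_OE the same 5 rose, against 0.889%. No member was called lower in any of these lines. The median log2 difference over the 6 members was 1.81 in MYB29_OE, 1.60 in MYB76_OE, 2.76 in ATR1_OE and 2.49 in MYB51_OE. The medians over all tested probe sets were 0.06, 0.05, -0.13 and -0.07. MYB29_OE and MYB76_OE share their wild type arrays, as do ATR1_OE and MYB51_OE, so the lines of a pair are not independent.

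**Figure D3:**
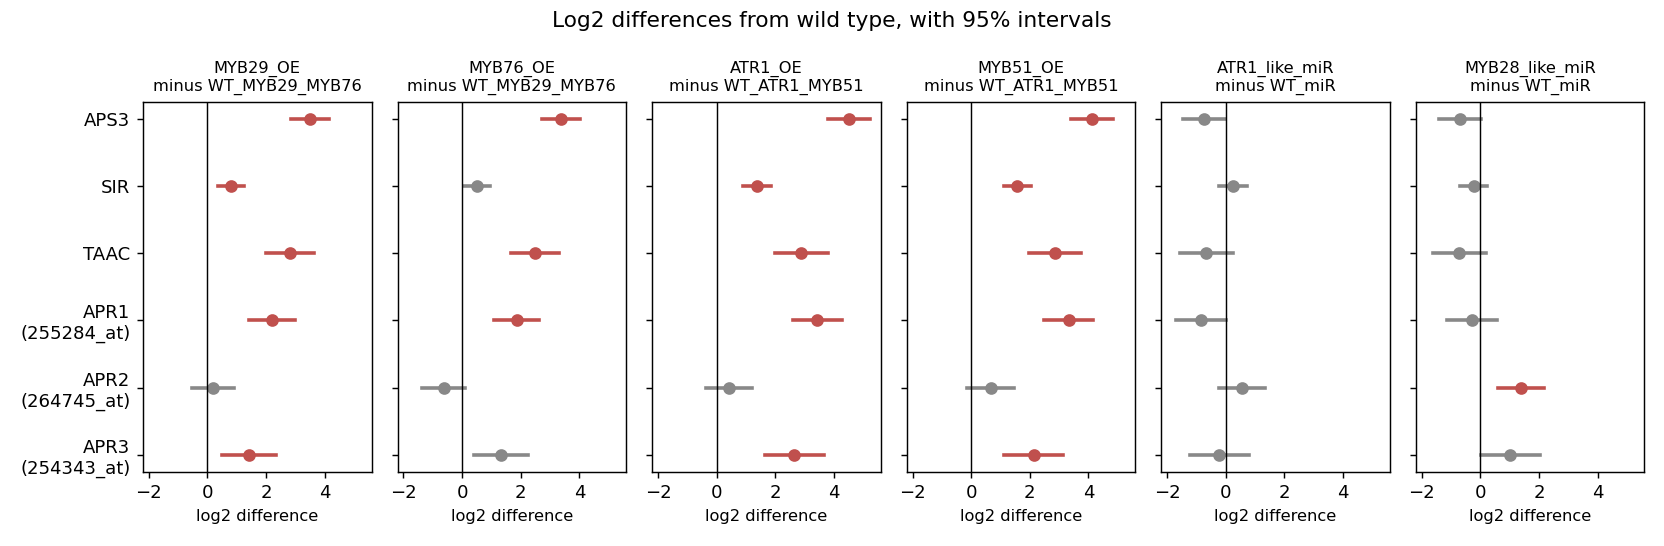
Log2 difference of each member from its own wild type in the 6 lines, with bars for 95% intervals. Red points are called higher by limma at an adjusted p under 0.05 and grey points are not called. APS3 has the highest value of the 6 members in each overexpressing line, from 3.38 to 4.51, and APR2 is called in MYB28_like_miR only.

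APS3, at the first step of the pathway, had the highest rise of the 6. Its signal was 197.2, 283.8 and 218.1 on the WT_MYB29_MYB76 arrays, 2165 and 3082 in MYB29_OE, and 2520 and 2268 in MYB76_OE. It was 310 and 151.9 in WT_ATR1_MYB51, 5821 and 4217 in ATR1_OE, and 3789 and 3697 in MYB51_OE. Every overexpressing array was thus several times brighter than every wild type array, and no groups of lines and wild type overlapped. In MYB29_OE APS3 rose 11.2-fold, by 3.49 ± 0.31 (SE) on the log2 scale (95% interval 2.84 to 4.14, limma adjusted p = 3.75e-06). In MYB76_OE it rose 10.4-fold (limma adjusted p = 5.07e-06). The rise was 22.8-fold in ATR1_OE, by 4.51 ± 0.34 (SE) with a limma adjusted p = 1.68e-06, and 17.2-fold in MYB51_OE (limma adjusted p = 8.07e-06). Ranked by the size of the rise among all tested probe sets, APS3 stood 20th in MYB29_OE, 34th in MYB76_OE, 18th in ATR1_OE and 10th in MYB51_OE. Against the other experiments' wild type its difference was 3.22 in MYB29_OE and 3.11 in MYB76_OE (limma adjusted p = 4.21e-05 and 6.35e-05). From the lowest group up, the order was ATR1_like_miR, WT_ATR1_MYB51, MYB28_like_miR, WT_MYB29_MYB76 and WT_miR, each overlapping the next. Above a gap followed MYB76_OE and MYB29_OE, which overlapped, then MYB51_OE and ATR1_OE.

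The reduction steps come next, and the 3 APR transcripts did not behave alike. APR1 had signals of 216.5, 581.7 and 503.8 in WT_MYB29_MYB76, 1704 and 1969 in MYB29_OE, and 1440 and 1467 in MYB76_OE. It had 230.2 and 146.3 in WT_ATR1_MYB51, 2156 and 1821 in ATR1_OE, and 1907 and 1778 in MYB51_OE. The 8 overexpressing arrays lay close together, above all wild type arrays, while the wild type arrays themselves differed between experiments. It rose 4.59-fold in MYB29_OE (2.20 ± 0.36, SE; limma adjusted p = 0.00138) and 3.64-fold in MYB76_OE (limma adjusted p = 0.00428). It rose 10.8-fold in ATR1_OE (3.43 ± 0.40, SE; limma adjusted p = 7.76e-05) and by 3.33 ± 0.40 (SE) in MYB51_OE (limma adjusted p = 0.00019). With the other experiments' wild type as control, the differences were 2.20 in ATR1_OE and 2.10 in MYB51_OE (limma adjusted p = 0.000635 and 0.00212). In MYB29_OE and MYB76_OE they were then 2.62 and 2.29 (limma adjusted p = 0.006 and 0.0133). The call in MYB76_OE was lost without either of its arrays, at adjusted p = 0.0543 and 0.0508. Its order ran from WT_ATR1_MYB51 through ATR1_like_miR, MYB28_like_miR, WT_MYB29_MYB76 and WT_miR to MYB76_OE, MYB29_OE, MYB51_OE and ATR1_OE. The top 3 of these overlapped their neighbours, and WT_miR did not reach MYB76_OE.

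For APR3 the 3 arrays of WT_MYB29_MYB76 were 203.3, 450.5 and 1001, with an SD of 408 around a mean of 551.6, and its coefficient of variation of 74% was the widest of any group and member. The signal was 1388 and 1046 in MYB29_OE and 1192 and 1070 in MYB76_OE, above the brightest of these wild type arrays but near it. In the other experiment the groups lay far apart, with 358 and 346.2 in WT_ATR1_MYB51, 2343 and 2065 in ATR1_OE, and 1780 and 1326 in MYB51_OE. APR3 rose 6.25-fold in ATR1_OE (2.64 ± 0.47, SE; limma adjusted p = 0.00223) and 4.36-fold in MYB51_OE (limma adjusted p = 0.035). It rose 2.67-fold in MYB29_OE (1.42 ± 0.43, SE; limma adjusted p = 0.04). In MYB76_OE the difference of 1.32 (95% interval 0.40 to 2.24) missed the threshold, with a limma adjusted p = 0.0557. These calls near the threshold turned on single arrays: without WT_MYB29_MYB76 replicate 1 the difference in MYB29_OE was 0.84 (adjusted p = 0.11), and without replicate 3 that in MYB76_OE was 1.90 (adjusted p = 0.00213). The call in MYB29_OE was also lost without wild type replicate 2 or either MYB29_OE array, and that in MYB51_OE without any 1 of its 4 arrays. Both also depended on the variance trend, without which the limma adjusted p was 0.0509 and 0.0504. Against the other experiments' wild type the differences were 2.09 in MYB29_OE and 2.0 in MYB76_OE, with limma adjusted p = 0.018 and 0.0223. Ranked by mean log2 signal of APR3, ATR1_like_miR and WT_miR were lowest and overlapped. WT_ATR1_MYB51, WT_MYB29_MYB76 and MYB28_like_miR came next, with neighbours overlapping, although WT_MYB29_MYB76 replicate 1, at 203.3, lay within both of the lowest groups. MYB76_OE, MYB29_OE and MYB51_OE followed, again with neighbours overlapping, and ATR1_OE stood highest.

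APR2, the isoform known to account for most APS reductase activity in Arabidopsis leaves, was the exception. Its signal was 1688, 2115 and 4754 in WT_MYB29_MYB76, 2706 and 3145 in MYB29_OE, and 1703 and 1629 in MYB76_OE. The MYB29_OE arrays lay within the wild type range. Of the MYB76_OE arrays 1 lay at its lower end and the other, at 1629, just below it. It was 1892 and 3064 in WT_ATR1_MYB51, 3117 and 3392 in ATR1_OE, and 3993 and 3650 in MYB51_OE, with the lines just above the brighter wild type array. None of these differences was called: 0.18 (95% interval -0.54 to 0.90) in MYB29_OE, -0.63 in MYB76_OE, 0.43 (-0.36 to 1.22) in ATR1_OE and 0.66 (-0.13 to 1.46) in MYB51_OE, with limma adjusted p = 0.749, 0.236, 0.467 and 0.552. The intervals leave room for a rise of up to 1.46, so they do not show that the level was the same. With the other experiments' wild type as control, APR2 differed by 1.06 in MYB29_OE and 0.25 in MYB76_OE, neither past the threshold (limma adjusted p = 0.385 and 0.893). Its order from the lowest was WT_miR, ATR1_like_miR, MYB76_OE, MYB28_like_miR, WT_ATR1_MYB51, WT_MYB29_MYB76, MYB29_OE, ATR1_OE and MYB51_OE. From MYB76_OE up to ATR1_OE each group overlapped the next, so wild type and overexpressing groups were interleaved.

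SIR, the last reduction step, had the smallest of the called rises. Its signal was 1564, 2004 and 2102 in WT_MYB29_MYB76, 3033 and 3519 in MYB29_OE, and 2784 and 2572 in MYB76_OE. It was 1457 and 1426 in WT_ATR1_MYB51, 4019 and 3455 in ATR1_OE, and 3902 and 4729 in MYB51_OE. All overexpressing arrays were above all wild type arrays. SIR rose 1.74-fold in MYB29_OE (0.80 ± 0.20, SE; limma adjusted p = 0.0171), 2.59-fold in ATR1_OE (limma adjusted p = 0.00109) and 2.98-fold in MYB51_OE (limma adjusted p = 0.000903). In MYB76_OE the difference of 0.51 ± 0.20 (SE) was not called (limma adjusted p = 0.105), although its arrays did not overlap those of wild type. The call in MYB29_OE was lost without WT_MYB29_MYB76 replicate 1 (adjusted p = 0.0607) or MYB29_OE replicate 2 (adjusted p = 0.195). Against the other experiments' wild type SIR was past the threshold in both lines, with differences of 1.22 and 0.93. In the order of its levels MYB28_like_miR, WT_miR and WT_ATR1_MYB51 were lowest, ATR1_like_miR and WT_MYB29_MYB76 followed, and MYB76_OE, MYB29_OE, ATR1_OE and MYB51_OE were highest, the last 3 overlapping.

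TAAC, on the PAPS branch and not on the reductive one, rose in all 4 lines. Its signal was 241.7, 350.4 and 145.6 in WT_MYB29_MYB76, 1273 and 2053 in MYB29_OE, and 1161 and 1453 in MYB76_OE. It was 536 and 278.2 in WT_ATR1_MYB51, 2917 and 2792 in ATR1_OE, and 2377 and 3308 in MYB51_OE. No line overlapped its wild type, and WT_MYB29_MYB76 had the lowest mean of all 9 groups. The rise was 2.81 ± 0.39 (SE) in MYB29_OE (limma adjusted p = 0.000358) and 2.49 ± 0.39 (SE), or 5.62-fold, in MYB76_OE (limma adjusted p = 0.000829). It was 7.39-fold in ATR1_OE (limma adjusted p = 0.000599) and 7.26-fold in MYB51_OE (limma adjusted p = 0.00155). Against the other experiments' wild type the difference was 1.81 in MYB29_OE (adjusted p = 0.0212) and 1.5 in MYB76_OE, where it was no longer past the threshold (adjusted p = 0.061). The order of the other groups was MYB28_like_miR, ATR1_like_miR, WT_ATR1_MYB51 and WT_miR, each overlapping the next. Then came MYB76_OE and MYB29_OE, which overlapped, and MYB51_OE and ATR1_OE, which also overlapped.

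**Figure D4:**
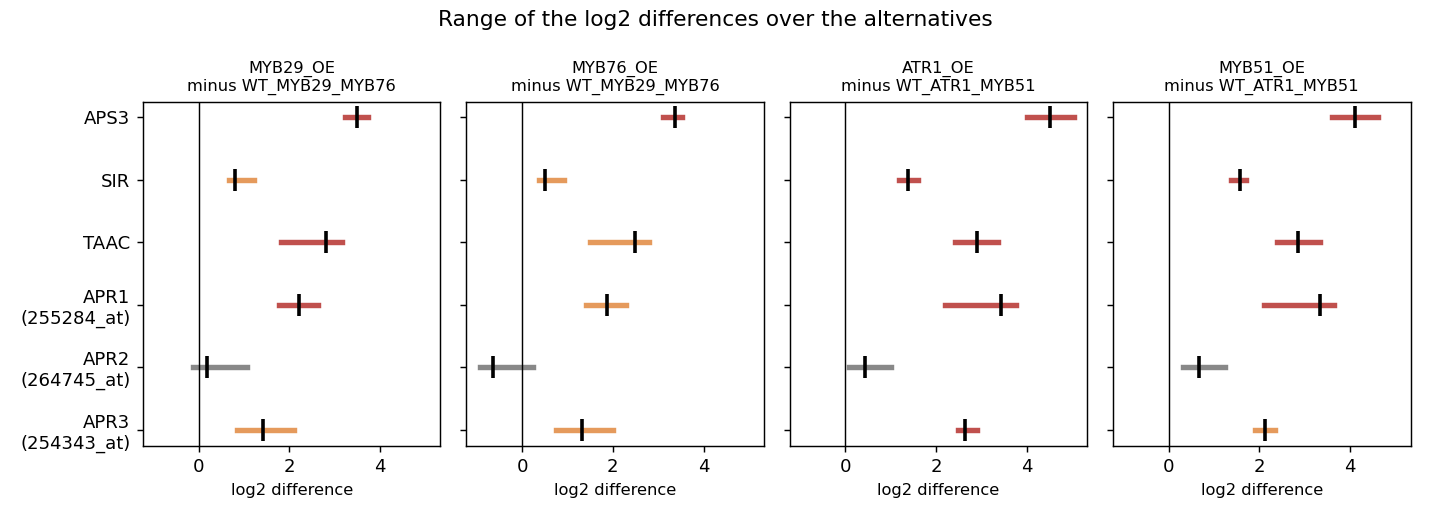
Range of the log2 difference of each member over the alternative settings, in panels for the 4 overexpressing lines. Bars run from the lowest to the highest value and black ticks mark the reported one. Red bars passed the threshold in all alternatives, orange bars in some and grey bars in none. APS3 is red in every panel, APR3 is red in ATR1_OE only, and APR2 is grey throughout.

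No member was called between the lines of a pair. Between MYB29_OE and MYB76_OE 0 of 6 members were called by limma, where 0.0256% of all probe sets were. At an unadjusted p under 0.05 was 1 member, APR2, where 3.28% of all probe sets passed that threshold. It was higher in MYB29_OE by 0.81 (95% interval 0.02 to 1.60, adjusted p = 1). For APS3 the difference of 0.11 had an interval from -0.60 to 0.82, and for TAAC that of 0.32 ran from -0.58 to 1.22. Between ATR1_OE and MYB51_OE 0 of 6 were called, against 2.67% of all, and none had an unadjusted p under 0.05, against 18.9% of all. APS3 was 0.40 higher in ATR1_OE (interval -0.31 to 1.12) and SIR differed by -0.21 (-0.67 to 0.26). These intervals are wide and do not show that the lines act alike.

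The responses of the indole and aliphatic regulator lines were compared by their difference, the mean of ATR1_OE and MYB51_OE over their wild type minus the mean of MYB29_OE and MYB76_OE over theirs. SIR was called, 1 of 6 members where 18.1% of all probe sets were, with a difference of responses of 0.82 ± 0.26 (SE; 95% interval 0.27 to 1.36; limma adjusted p = 0.0379). The APR1 response was larger by 1.35 ± 0.46 (SE; interval 0.37 to 2.32), which missed the threshold at a limma adjusted p = 0.0529, and that of APS3 by 0.88 (interval 0.06 to 1.70; adjusted p = 0.13). For TAAC the difference was 0.22 (interval -0.82 to 1.26; adjusted p = 0.793), for APR3 1.01 (adjusted p = 0.215) and for APR2 0.77 (adjusted p = 0.229). The mean of APR1 in WT_MYB29_MYB76 was itself 1.12 above that in WT_ATR1_MYB51, which was not called (limma adjusted p = 0.0758). The SIR call passed in 8 of 22 alternatives, with values from 0.70 to 1.03. With arrays left out singly it held only without WT_MYB29_MYB76 replicate 1, ATR1_OE replicate 2 or MYB51_OE replicate 1. The same contrast called 46 of 68 plastid-encoded probe sets higher, and experiment and regulator class cannot be told apart. The medians were 0.85 over the members and -0.14 over all probe sets.

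In the artificial microRNA lines 1 call was made among the 6 members, for APR2 in MYB28_like_miR. APS3 signal was 254.5 and 489.5 in WT_miR, 207 and 214.8 in ATR1_like_miR, and 239.8 and 200.8 in MYB28_like_miR, with both lines just below the dimmer wild type array. In ATR1_like_miR 0 of 6 members were called by limma, where 2.02% of all probe sets were in either direction. APS3 was the 1 member of 6 with an unadjusted p under 0.05, where 16.2% of all probe sets passed that threshold. Its difference was -0.74 (95% interval -1.46 to -0.03; adjusted p = 0.283). The difference for APR1 was -0.83 (interval -1.68 to 0.01; adjusted p = 0.314), from signals of 379.2 and 614.4 in WT_miR to 246.8 and 297.8. TAAC was 360.6 and 837.3 in WT_miR, 311 and 391.3 in ATR1_like_miR and 332.1 and 338.5 in MYB28_like_miR, with differences of -0.66 (adjusted p = 0.482) and -0.71 (adjusted p = 0.328), neither called. For APS3, APR1 and TAAC, WT_miR had the highest mean log2 signal of the wild type groups. Against all 7 wild type arrays, which mix experiments, their differences were -0.28, -0.32 and 0.03 in ATR1_like_miR. They were then -0.22, 0.23 and -0.03 in MYB28_like_miR, and none was called. SIR ranged from 921.7 to 1784 over the 3 groups, with differences of 0.25 and -0.23 that were not called. APR3 in ATR1_like_miR, at 203.8 and 184.9, lay near the dimmer WT_miR array.

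In MYB28_like_miR 1 member was called higher, against 2.06% of all probe sets, and it was APR2, which was called in no overexpressing line. The signal of APR2 was 796.1 and 832.4 in WT_miR, 1381 and 1049 in ATR1_like_miR, and 2809 and 1636 in MYB28_like_miR. Both wild type arrays were lower than every array of the other 8 groups. It rose 2.63-fold in MYB28_like_miR, by 1.40 ± 0.37 (SE; limma adjusted p = 0.037), and the difference of 0.56 in ATR1_like_miR was not called (adjusted p = 0.492). Without MYB28_like_miR replicate 2, the array with the conflicting label, the value was 1.79 (adjusted p = 0.0533), and the call was lost without any 1 of the 4 arrays. Against all 7 wild type arrays the difference was 0.24 (adjusted p = 0.812). The other members of this line were not called with or without that array. Without it, APS3 differed by -0.56 in place of -0.69 and TAAC by -0.73 in place of -0.71. The sign turned for SIR, with 0.09 in place of -0.23, and for APR1, with 0.14 in place of -0.29. With it, APR3 differed by 1.02 (interval 0.01 to 2.02; adjusted p = 0.208), from 181.8 and 283.7 in WT_miR to 529.8 and 398.5, and without it by 1.22 (adjusted p = 0.336). Between ATR1_like_miR and MYB28_like_miR 0 of 6 were called by limma, where 0.0320% of all were. At an unadjusted p under 0.05 were 3 members, SIR with 0.48, APR2 with -0.83 and APR3 with -1.24, all ATR1_like_miR minus MYB28_like_miR, where 7.77% of all probe sets passed that unadjusted threshold. Without the array with the conflicting label the SIR difference was 0.15, that of APR2 -1.22 and that of APR3 -1.45. The medians of the members were -0.44 in ATR1_like_miR and -0.26 in MYB28_like_miR, and those of all probe sets -0.10 and -0.14.

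The wild type groups differed among themselves in 3 members. WT_miR had less APR2 than either other wild type, with WT_MYB29_MYB76 higher by 1.66 ± 0.34 (SE; limma adjusted p = 0.00357) and WT_ATR1_MYB51 higher by 1.56 ± 0.37 (SE; limma adjusted p = 0.0116). TAAC was lower in WT_MYB29_MYB76 than in WT_miR by a log2 difference of -1.25 (limma adjusted p = 0.0323). APR1 was lower in WT_ATR1_MYB51 than in WT_miR, at -1.40 (limma adjusted p = 0.0297). These are 2 of 6 members in each of those comparisons, where 21.2% and 13.0% of all probe sets were called, a background against which 2 of 6 says little. The TAAC call was lost without WT_MYB29_MYB76 replicate 1 or 3 or WT_miR replicate 2, and both calls against WT_ATR1_MYB51 without its replicate 2 or either WT_miR array. The APR2 call between WT_MYB29_MYB76 and WT_miR held with each array left out. Between WT_MYB29_MYB76 and WT_ATR1_MYB51 0 of 6 were called by limma, against 6.69%. The nearest to the threshold was APR1, at 1.12 with an adjusted p = 0.0758 and an unadjusted p = 0.00722. A level read against another experiment's wild type carries these differences.

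Other genes of the pathway were taken from a list of 52 loci for sulfate uptake, assimilation, cysteine and glutathione synthesis and the response to low sulfur. Of these, 4 are named on the array: APS4, another ATP sulfurylase, SIRB, the ferrochelatase that makes the siroheme of sulfite reductase, AT1G04770, a gene known to respond to sulfur deficiency, and BGLU28, a beta-glucosidase that is also induced by low sulfur. In MYB29_OE and ATR1_OE 2 of the 4 rose, where 8.09% and 5.54% of all probe sets did. In MYB76_OE and MYB51_OE 1 rose, against 7.15% and 0.889% of all. None was called lower in any line. None was called in ATR1_like_miR or MYB28_like_miR, where 2.02% and 6.43% of all were in either direction. BGLU28 rose in all 4 overexpressing lines, by 5.90 and 6.48 in MYB29_OE and MYB76_OE and by at least 6.48 and 3.80 in ATR1_OE and MYB51_OE (limma adjusted p from 6.81e-09 to 1.11e-05). Its wild type signal of 12.48 ± 4.99 (SD, n = 2) in the last 2 comparisons had 1 array below the floor and the other, at 16.01, near it, so those values are lower bounds. AT1G04770 rose 3.05-fold in MYB29_OE (limma adjusted p = 0.0352) and 5.27-fold in ATR1_OE (limma adjusted p = 0.00685), and its differences of 1.29 in MYB76_OE and 2.06 in MYB51_OE were not called (adjusted p = 0.0868 and 0.0714). APS4, of the same enzyme family as APS3, had differences of -0.48, -0.22, -0.04 and -0.59 in the 4 lines in the same order, none of them called. Its unadjusted limma p was 0.0344 in MYB29_OE and 0.02 in MYB51_OE, where 31.1% and 11% of all probe sets had one under 0.05. SIRB differed by 0.29, 0.36, -0.09 and -0.13, none called. Between ATR1_OE and MYB51_OE BGLU28 was the called gene of the 4, higher in ATR1_OE by 2.68 (limma adjusted p = 0.000924).

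The named genes whose log2 signal most resembled each member over the 19 arrays were found by Pearson's r, given as a description since the arrays share groups and experiments. For APS3 they were MSRB5, a methionine sulfoxide reductase (r = 0.977), AT3G23570 (r = 0.973) and AT5G44720 (r = 0.968). TAAC was most like APS3 (r = 0.961), AT5G44720 (r = 0.944) and UGT74B1, a glucosyltransferase of the glucosinolate core (r = 0.939). For APR1 they were AT5G44720 (r = 0.958), APS3 (r = 0.949) and MSRB5 (r = 0.936). SIR was nearest AT1G76550 and APS3 (both r = 0.909) and AT3G23570 (r = 0.896). APS3 thus stood among the 3 nearest named genes of SIR, TAAC and APR1. For APR3 the nearest were AT1G04770 (r = 0.940), AT4G39955 and AT4G25030 (both r = 0.901). For APR2 they were CaS, a calcium-sensing protein of the thylakoid (r = 0.862), AT1G44000 (r = 0.858) and AT5G16240 (r = 0.849), none of which was among the 3 nearest of another member.

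**Figure D5:**
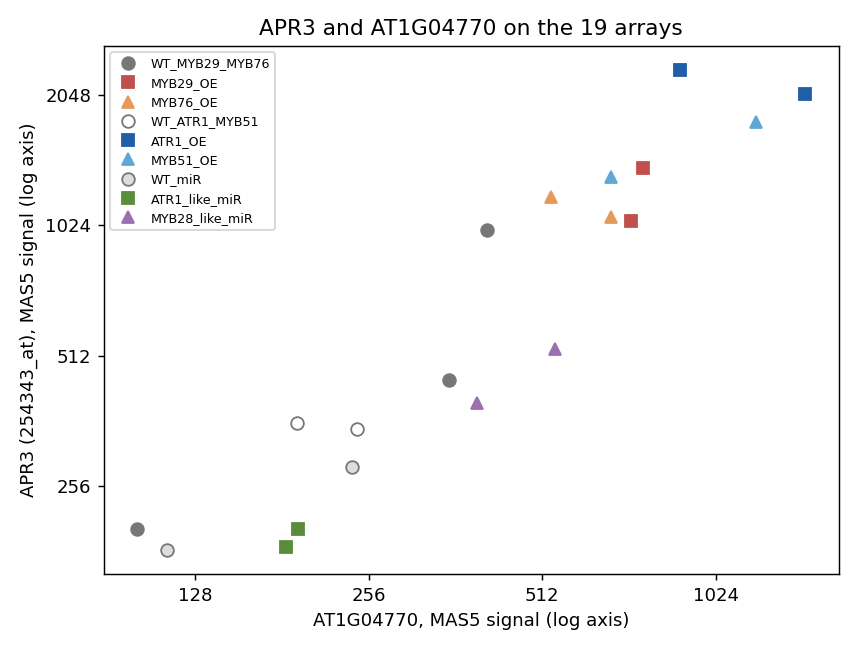
Signal of APR3 (vertical) against that of AT1G04770 (horizontal), both on log axes, on the 19 arrays, with colours and markers for groups (r = 0.940). Wild type and artificial microRNA arrays spread along the lower part and the 8 overexpressing arrays take the upper end.

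AT1G04770, chosen as the gene with the highest r to APR3, was also set beside it among wild type arrays. Those arrays entered that r, so a shared order among them is not a separate test. AT1G04770 signal was 101.5, 353.2 and 411.1 in WT_MYB29_MYB76, where APR3 was 203.3, 450.5 and 1001, so both were lowest on replicate 1 and highest on replicate 3. In WT_ATR1_MYB51 they went opposite ways, with AT1G04770 at 192.1 and 244.1 and APR3 at 358 and 346.2. In MYB28_like_miR AT1G04770 was 538.1 and 394.1, against 114.3 and 239.6 in WT_miR, a difference of 1.48 that was not called (limma adjusted p = 0.101), nor was that of 1.70 without replicate 2 (adjusted p = 0.213). CaS, likewise chosen for the highest r to APR2, was lowest in WT_miR too, at 1147 and 1085. These lay below every array of the other 8 groups. The WT_miR arrays entered that r, so the shared low is part of the choice and not a separate test.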

How the data were processed

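The deposited values are linear MAS5 signal, an intensity per probe set, per the submitters' processing notes, which give no version. The values themselves show that the authors scaled each array to a mean of 250 after removing 2% at each end. Before log2, values under an array's 20th percentile were raised to it. Tested were probe sets at or above the 40th percentile on 2 arrays or more, without the 64 controls. With limma 3.58.1 in R 4.3.3, a linear model of 9 group means took in all 19 arrays (eBayes, trend), with 10 residual and 5.62 prior degrees of freedom. All tests were two-sided. Adjusted p-values are Benjamini and Hochberg's over all 15627 probe sets tested, and those under 0.05 were called. Between replicates r lay from 0.911 to 0.986 across probe sets, and precision is limited by how few arrays there are.

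Of all probe sets 13513 had 1 gene in the annotation, 503 several, and 8794 were not listed. Names follow RefSeq. No sequences were used here. The named genes were all 6 members, the called genes of the pathway lists (up to 8 a comparison), and for each member the 3 named nuclear genes with the highest r. The members and lists were chosen with earlier results of these data known. The model was tested on simulated data. Alternatives were the floor, the filter, the scaling between arrays, the variance trend, the arrays in the fit, the control arrays, a replicate block, and each array left out in turn. The use of the other experiments' wild type arrays as control was chosen after seeing the data. Figures were drawn with matplotlib 3.10.9.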

Additional observations from a re-analysis of the deposited data

Results flagged for a closer look

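The contrast of responses between the ATR1 and MYB51 experiment and the MYB29 and MYB76 experiment called SIR, 1 of 6 members where 18.1% of all probe sets were called, a share near the background. The response was larger by 0.82 (log2) in ATR1_OE and MYB51_OE than in MYB29_OE and MYB76_OE, each over its own wild type. The limma adjusted p was 0.0379 and ranged from 0.0181 to 0.12 over 22 alternatives, of which 8 kept the call. Regulator class and experiment cannot be told apart. WT_MYB29_MYB76 itself had a higher mean SIR signal, 1890 ± 286 (SD, n = 3), than WT_ATR1_MYB51, at 1442 ± 21.9 (SD, n = 2), a difference of 0.38 that was not called (adjusted p = 0.275).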

How the results depend on the processing

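Of 1146 recomputed differences of a member, 1081 kept their side of the threshold, and 36 of these were uncalled differences that changed sign. A further 51 fell below the threshold, 12 passed it, and 2 changed sign where one of the values was past it. APS3 in the 4 overexpressing lines passed it in every alternative, as did TAAC and APR1 in all of them but MYB76_OE. So did SIR in MYB51_OE and all 5 called members in ATR1_OE. The 2 that changed sign with a value past the threshold concern APR2 with the other experiments' wild type as control, chosen after seeing the data: -1.06 in ATR1_like_miR (adjusted p = 0.0303, so 1 member was called) and -0.22 in MYB28_like_miR (adjusted p = 0.667). The cause was not tested. The APR3 call in MYB29_OE was also lost with no filter (adjusted p = 0.0544), without the trend (0.0509) and with the arrays of the experiment only (0.131), and that in MYB51_OE without the trend (0.0504). The count in MYB28_like_miR was 0 under that control, with all 7 wild type arrays, with no filter, with quantile normalization and without the trend. WT_MYB29_MYB76 against WT_miR gave 1 call with quantile normalization, and WT_ATR1_MYB51 against WT_miR gave 1 with arrays centred on their median. The difference of responses gave 0 calls with no filter, quantile normalization, no trend or the replicate block, and 2 with the filter at the 60th percentile or arrays centred on their median.

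With single arrays left out, counts ran from 3 to 5 in MYB29_OE, 2 to 4 in MYB76_OE, 0 to 0 in MYB28_like_miR, 0 to 3 in the difference of responses, 0 to 1 in WT_MYB29_MYB76 against WT_ATR1_MYB51, 1 to 2 in WT_MYB29_MYB76 against WT_miR and 0 to 2 in WT_ATR1_MYB51 against WT_miR. They were 5 throughout in ATR1_OE and 4 throughout in MYB51_OE. Where an arm kept 1 array, it was assumed to vary like the other groups. Deviations of same-numbered arrays from their group means had correlations from -0.218 to 0.158. In a group of 2 arrays the deviations mirror each other, so these values cannot tell whether the numbers pair the samples. The replicate block gave no weight to WT_MYB29_MYB76 replicate 3, the only array with its number in its experiment. With the block APR3 in MYB76_OE was 1.90 (limma adjusted p = 0.0075) and the SIR difference of responses 0.73 (limma adjusted p = 0.105). Both differences equal those found when replicate 3 was left out.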
